A study of Mus musculus with 15 samples.

Results

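Guca2a, Guca2b and Gucy2c encode guanylin, uroguanylin and their receptor in the gut, and the 3 genes were taken by symbol from 2 deposited tables of reads per gene that list 45905 genes each. Guanylin and uroguanylin are small peptides that intestinal epithelial cells release into the lumen. Both bind guanylate cyclase C, the product of Gucy2c, a receptor in the brush border that makes cyclic GMP when a peptide binds. Cyclic GMP activates the membrane-bound protein kinase encoded by Prkg2, which opens the chloride channel Cftr and lowers sodium uptake by the exchanger Slc9a3, so that salt and water stay in the lumen. The heat-stable toxin of Escherichia coli causes diarrhoea through the same receptor. In the mouse, guanylin RNA is known mainly from ileum and colon and uroguanylin RNA mainly from the small intestine.

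The study concerns Jup, the gene of the junction protein plakoglobin, and sequenced poly(A) RNA of 15 mouse samples in 5 groups of 3. The Tamoxifen organoids are titled iVilCre ERT2JUPfl/fl, a floxed Jup gene with a tamoxifen-inducible Cre driven by the villin promoter, which is active in intestinal epithelium, and all 3 carry the code T41. The DMSO organoids and the nativ organoids are both titled JUPfl/fl, with no Cre named, and all 6 carry the code T75. Code, Cre genotype and treatment therefore changed together between the Tamoxifen organoids and the other organoids, and these cannot be told apart. The 3 gut samples described as PG_KO carry the codes T47, T48 and T56, and the 3 described as ctr carry T50, T51 and T52. Their titles go against these descriptions: the ctr samples are titled iVilCre ERT2JUPfl/fl and the PG_KO samples DSS colitis JUPfl/fl (DSS is dextran sodium sulfate, a chemical that injures the colon). The descriptions were used here, and which animals received DSS, the animals' ages and the stretch of gut sampled were not settled by the labels. Nothing in the labels says that the organoid replicates of a group came from separate cultures, so p-values measure the spread between these samples only, which may be technical.

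Libraries held 25185053 to 30744563 reads in organoids and 23194385 to 29257641 reads in gut. At that depth 3 reads, the limit that a count of 0 allows, correspond to 0.0976 to 0.129 CPM (reads scaled to a common library total), counting error only. Jup had 69.0 to 71.2 CPM in Tamoxifen organoids, 359.6 to 414 CPM in DMSO organoids and 275 to 395 CPM in nativ organoids. In gut, Jup averaged 79.4 ± 3.89 CPM in PG_KO and 390.3 ± 97.4 CPM in ctr (SD, n = 3 each), so the lower level went with the descriptions and not with the Cre genotype in the titles. The log2 change of Jup in gut was -2.29 (SE 0.23, adjusted p = 0.163 by edgeR). The 12 markers of general intestinal epithelium summed to 14736 to 14923 CPM in Tamoxifen organoids, 7162 to 9036 CPM in DMSO organoids and 9546 to 9820 CPM in nativ organoids, and to 16978 to 21406 CPM in PG_KO and 11633 to 18910 CPM in ctr gut. Nativ replicate 2 and ctr replicate 3 stood apart from the other libraries of their groups, and the values of the guanylin genes are given with and without them. Ctr replicate 1 also stood apart in some values, such as enteroendocrine markers summing to 2049 CPM against 609 and 540 CPM in ctr replicates 2 and 3.

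The hormone genes are neighbours on chromosome 4. Guca2a lies at chr4:119637732-119639465 on the plus strand and Guca2b at chr4:119656601-119658945 on the minus strand (GRCm38.p6), with 17135 bases between their ends and 0 other genes of the table between them. They point towards each other, and their start sites are 21213 bases apart. Gucy2c lies at chr6:136697284-136781742 on the minus strand. The long non-coding RNA gene Gm35761, on the opposite strand, covers 661 of the 2345 bases of Guca2b, and as the strand setting of the counting is not given, reads of this stretch cannot be assigned. Gm35761 had 2.11 to 2.27 CPM in Tamoxifen organoids and 0 reads in every DMSO and nativ library.

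The ends of both hormone coding sequences are shown because they hold the part that becomes the active peptide. The last 15 codons before the stop codon are given 5′ to 3′ on the coding strand from the GENCODE transcripts of GRCm38, with codons for cysteine in capitals, at chr4:119639228-119639272 for Guca2a and chr4:119656795-119656839 for Guca2b.
Guca2a: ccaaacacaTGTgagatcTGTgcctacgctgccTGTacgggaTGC
Guca2b: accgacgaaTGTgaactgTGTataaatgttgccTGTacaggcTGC
The stretches share 29 of 45 bases, and all 4 cysteine codons of each stand at the same positions. These cysteines form the disulfide bonds that hold the peptide in its active shape. The whole coding sequences have 116 codons in Guca2a and 130 in Guca2b.

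The 250 bases before each hormone gene's start are shown because both genes differed between organoid groups, as did listed genes of factors known to bind intestinal promoters. They come from the RefSeq promoter table of GRCm38.p6, in which 2 of the 3 genes were found, 5′ to 3′ on the strand of the gene, at chr4:119637482-119637731 for Guca2a and chr4:119658946-119659195 for Guca2b. Capitals mark matches of the motifs named below on either strand.
Guca2a: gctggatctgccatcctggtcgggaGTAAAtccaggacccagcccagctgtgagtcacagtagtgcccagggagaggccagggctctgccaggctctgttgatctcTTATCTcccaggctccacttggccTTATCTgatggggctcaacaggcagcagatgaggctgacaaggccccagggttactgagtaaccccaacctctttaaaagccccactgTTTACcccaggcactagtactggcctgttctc
Guca2b: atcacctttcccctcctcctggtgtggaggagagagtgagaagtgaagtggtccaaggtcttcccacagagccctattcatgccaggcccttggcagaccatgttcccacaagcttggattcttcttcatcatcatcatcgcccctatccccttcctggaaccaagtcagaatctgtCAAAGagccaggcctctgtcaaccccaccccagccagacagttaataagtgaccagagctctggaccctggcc
The GATA letters AGATAA occurred at 144 and 120 bases before the start of Guca2a (9.99% of 32851 promoter windows of the same length hold them). The CDX letters TTTAC occurred at 225 and 32 bases before it (28.3% of windows) and TTTAT in neither promoter (37.3%). The letters CAAAG, only a part of an HNF4 site, occurred 73 bases before the start of Guca2b (48.6%). The shares are of windows with any match, and windows with repeated matches were not counted apart. The motifs were picked with the promoters and results in view, and a match describes letters only.

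In Tamoxifen organoids the hormones and the receptor were all abundant, and in DMSO and nativ organoids they were at or near 0. Guca2a, the guanylin gene, had 7906, 7836 and 7632 reads in Tamoxifen organoids, 0 reads in each DMSO organoid library, and 0, 8 and 1 reads in nativ organoids. Guca2b, the uroguanylin gene, had 3490, 3600 and 3319 reads in Tamoxifen organoids, 0, 0 and 2 reads in DMSO organoids, and 9, 13 and 4 reads in nativ organoids. The receptor gene Gucy2c had 7308, 7337 and 6744 reads in Tamoxifen organoids, 3, 1 and 1 reads in DMSO organoids, and 0, 11 and 0 reads in nativ organoids. Every Tamoxifen library lay far above every other organoid library for all 3 genes, and the Tamoxifen replicates lay close together. As CPM the Tamoxifen means were 264 ± 9.09 for Guca2a, 118 ± 1.10 for Guca2b and 241 ± 2.83 for Gucy2c (SD, n = 3).

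**Figure D1:**
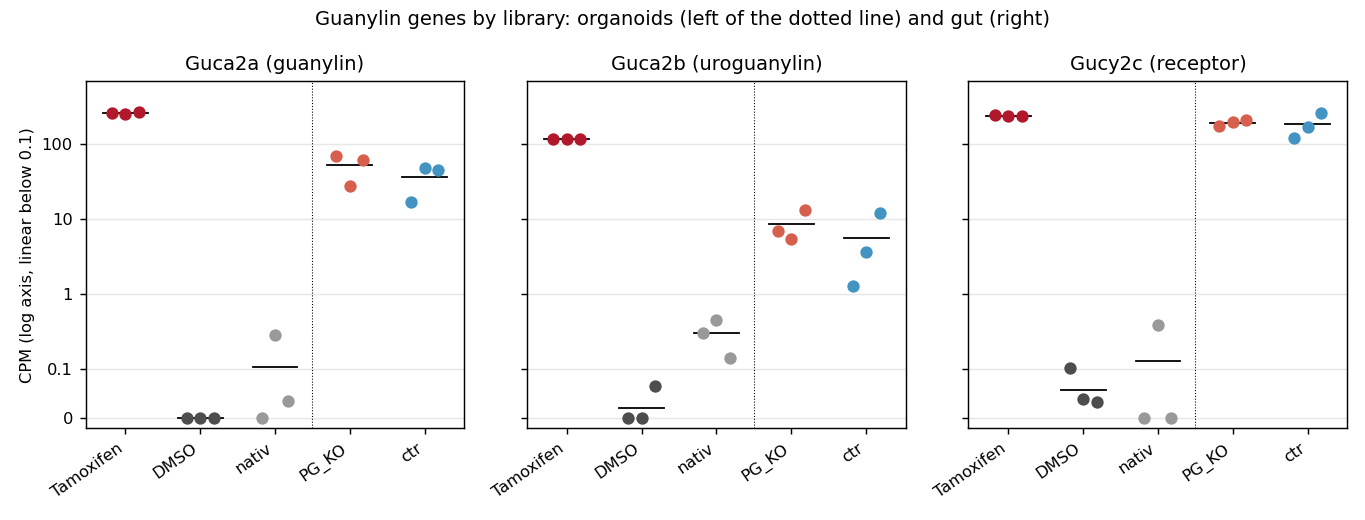
CPM of Guca2a, Guca2b and Gucy2c in each library, on a log axis that is linear below 0.1 CPM; points are libraries, bars are group means, organoid groups stand left of the dotted line and gut groups right of it. Tamoxifen organoids lie above 100 CPM for all 3 genes and DMSO and nativ organoids below 1 CPM, while the PG_KO and ctr points overlap in each panel.

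Against DMSO organoids, the reads of Guca2a were at least 7496-fold higher in Tamoxifen organoids, computed against 3 reads over the DMSO group (edgeR quasi-likelihood test, adjusted p = 2.49e-08). Guca2b was higher by 11.99 on the log2 scale (SE 0.35, adjusted p = 6.38e-10 by edgeR), and its ratio of CPM over the groups was 5007 with a 95% counting interval of 1386 to 41352, as the DMSO libraries held 2 reads. Both of these reads were in DMSO replicate 3, and without it Guca2b was at 0 reads in DMSO organoids and at least 2144-fold higher in Tamoxifen organoids (adjusted p = 3.61e-08 by edgeR). Gucy2c was higher by 11.84 (SE 0.49, adjusted p = 6.48e-09 by edgeR), a ratio of 4116 with a counting interval of 1763 to 12677, and by 12.47 without DMSO replicate 1, which held 3 of the 5 DMSO reads. Of all 16449 genes tested in this comparison, 66.3% passed the same threshold of 0.05, and 33.9% passed it as higher in Tamoxifen organoids. In 76.2% of the genes tested, as in all 3 of these, the groups did not overlap. The 3 genes passed the low-count filter only through the Tamoxifen libraries, so in this comparison they could only be higher there. Summed markers of epithelial cell types also differed in level between the organoid groups, in both directions. The 13 markers of small intestinal enterocytes summed to 9430 to 10353 CPM in Tamoxifen organoids, 13.2 to 23.1 CPM in DMSO organoids and 18.7 to 24.3 CPM in nativ organoids, and none of the 13 was at 0 in all libraries of a group. The 12 goblet markers summed to 1239 to 1293 CPM in Tamoxifen organoids, 29.6 to 66.6 CPM in DMSO organoids and 67.6 to 149 CPM in nativ organoids. The 10 tuft cell markers lay the other way, at 6.83 to 10.2 CPM in Tamoxifen organoids, 139.7 to 169 CPM in DMSO organoids and 105 to 149 CPM in nativ organoids. Of 8 tuft markers tested against DMSO organoids, 4 fell and 3 rose. Markers of stem and transit amplifying cells summed to 679 to 720.0 CPM in Tamoxifen organoids, 386 to 514 CPM in DMSO organoids and 317 to 426 CPM in nativ organoids. The part of these cell types in the guanylin values was not tested. In bulk RNA, fewer cells of a type and less RNA per cell cannot be told apart.

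The comparison with nativ organoids gave the same directions, with smaller fitted changes. Guca2a was higher by 11.16 in Tamoxifen organoids on the log2 scale (SE 0.39, adjusted p = 2.96e-08 by edgeR). Guca2b was higher by 8.50 (SE 0.26, adjusted p = 9.45e-10 by edgeR) and Gucy2c by 10.75 (SE 0.45, adjusted p = 7.48e-09 by edgeR). The counting ratios were 2583 (1360 to 5649) for Guca2a, 398 (272 to 610) for Guca2b and 1934 (1081 to 3874) for Gucy2c. The nativ reads of Guca2a and Gucy2c were nearly all in nativ replicate 2. Without it the nativ group held 1 read of Guca2a, a ratio of 15633 with a counting interval of 2805 to 617475, and the ratio of Guca2b was 536 (313 to 1006). Gucy2c was then at 0 reads in nativ organoids and at least 4768-fold higher in Tamoxifen organoids. The edgeR adjusted p without this library was 6.30e-10 for Guca2a, 2.50e-10 for Guca2b and 7.53e-11 for Gucy2c. Without nativ replicate 1 the log2 change was 10.51 for Guca2a and 10.10 for Gucy2c, and without nativ replicate 3 it was 10.15 for Gucy2c. In this comparison 66.9% of all genes tested were called, 33.5% as higher and 33.5% as lower in Tamoxifen organoids, and 74.7% did not overlap. Both comparisons share the 3 Tamoxifen libraries.

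The DMSO and nativ libraries both come under T75, and none of the 3 genes was called between them. The 3 genes were in this test only because the Tamoxifen libraries carried them through the low-count filter. Their spread was estimated over all organoid libraries, and a fit of the DMSO and nativ libraries alone gave no value. Guca2b averaged 0.0219 ± 0.0378 CPM in DMSO organoids and 0.295 ± 0.156 CPM in nativ organoids, and each DMSO library lay below each nativ library. The fitted log2 change was -3.49 (SE 0.79, adjusted p = 0.291 by edgeR), and DESeq2 gave an adjusted p of 0.0528. For Guca2a, at 0 reads in DMSO organoids and 9 reads over nativ organoids, the edgeR adjusted p was 0.325. For Gucy2c the change was -1.10 (SE 1.22, adjusted p = 0.650 by edgeR). Among all genes edgeR called 0 of 16449, or 0.0%, while 2408 had an unadjusted p under 0.05 and DESeq2 called 138 (0.919%). Groups of 14.1% of the genes did not overlap.

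Most of these traces were in nativ replicate 2, which held 8 of the 9 Guca2a reads, 13 of the 26 Guca2b reads and all 11 Gucy2c reads of the nativ group. Its CPM amounted to 0.105% of the Tamoxifen mean for Guca2a, 0.383% for Guca2b and 0.158% for Gucy2c. The 13 markers of small intestinal enterocytes had a median of 0.163% of their Tamoxifen means in this library, against 0.0543% and 0.0584% in the other nativ libraries and 0.0121% to 0.0459% in DMSO organoids. Goblet cell markers summed to 149 CPM in it, against 67.6 and 75.5 CPM in nativ replicates 1 and 3. The median over 10 goblet markers set it apart less, at 1.23% of their Tamoxifen means. That median was 1.02% and 0.863% in nativ replicates 1 and 3 and 0.141% to 1.42% in DMSO organoids. The part of enterocytes and goblet cells in the traces was not tested. Without nativ replicate 2 the DMSO against nativ change was -2.32 for Guca2a, and none of the 3 genes was called. That of Gucy2c was 3.91, a reversed sign that rests on 5 reads in DMSO organoids and 0 in the remaining nativ libraries.

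**Figure D2:**
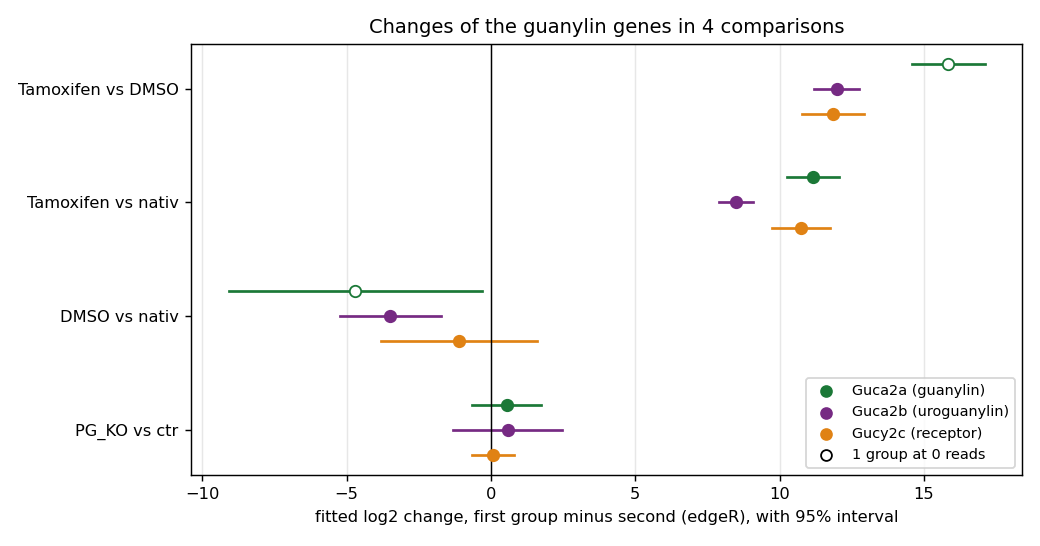
Fitted log2 change of Guca2a, Guca2b and Gucy2c in the 4 comparisons (edgeR, named group first minus the other), with 95% intervals not adjusted for multiple tests; open points have 1 group at 0 reads, so their position depends on the fit and is no bound. The 3 genes lie between 8.50 and 15.85 in the Tamoxifen comparisons and all 3 intervals cross 0 in PG_KO against ctr.

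In gut tissue all 3 genes were well detected in both groups, at levels whose ranges overlapped. Guca2a had 69.9, 27.7 and 61.2 CPM in PG_KO gut and 16.8, 47.6 and 45.2 CPM in ctr gut. Guca2b had 6.84, 5.34 and 13.3 CPM in PG_KO gut and 1.29, 3.58 and 11.9 CPM in ctr gut. Gucy2c had 174, 199.5 and 211 CPM in PG_KO gut and 120, 169 and 265 CPM in ctr gut. The PG_KO and ctr ranges overlapped for each gene, and ctr replicate 1 was the lowest library of its group for all 3.

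The log2 change of Guca2a in PG_KO over ctr was 0.55 (SE 0.50, 95% interval -0.65 to 1.75, adjusted p = 0.563 by edgeR). For Guca2b it was 0.59 (SE 0.80, interval -1.31 to 2.48, adjusted p = 0.702 by edgeR), and for Gucy2c 0.07 (SE 0.30, interval -0.65 to 0.80, adjusted p = 0.913 by edgeR). In this comparison edgeR called 0 of 18043 genes, 0.0%, at the adjusted threshold, 2705 had an unadjusted p under 0.05, and DESeq2 called 431 (2.33%). The groups did not overlap in 18.6% of the genes tested. Without ctr replicate 3 edgeR called 1478 genes (7.91%), none of them Guca2a, Guca2b or Gucy2c. Without that library the changes were 0.78 for Guca2a, 1.85 for Guca2b and 0.48 for Gucy2c (adjusted p of 0.394, 0.0987 and 0.155 by edgeR). Without ctr replicate 1 the change of Gucy2c was -0.18, again without a call. Over all fits with a gut replicate left out, the change ran from 0.19 to 0.88 for Guca2a and from 0.11 to 1.85 for Guca2b.

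Summed markers of other cells in the same gut libraries stood at different levels in PG_KO and ctr for some types. The 12 goblet cell markers summed to 636 to 1582 CPM in PG_KO and 4038 to 10042 CPM in ctr, with a median log2 change of -2.48 over 12 tested genes against -0.03 over all genes. Of the 12, 11 did not overlap between groups, edgeR called 0 and DESeq2 called 10, all lower in PG_KO. Over all genes 18.6% did not overlap and DESeq2 called 2.33%. Colonocyte markers summed to 1225 to 1867 CPM in PG_KO and 3705 to 7917 CPM in ctr, and smooth muscle markers to 621 to 1191 CPM in PG_KO and 678 to 4401 CPM in ctr, where ctr replicate 3 was the lowest. The part of these shifts in the guanylin values was not tested. General epithelial markers moved little, with a median log2 change of 0.23 and overlapping sums.

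**Figure D3:**
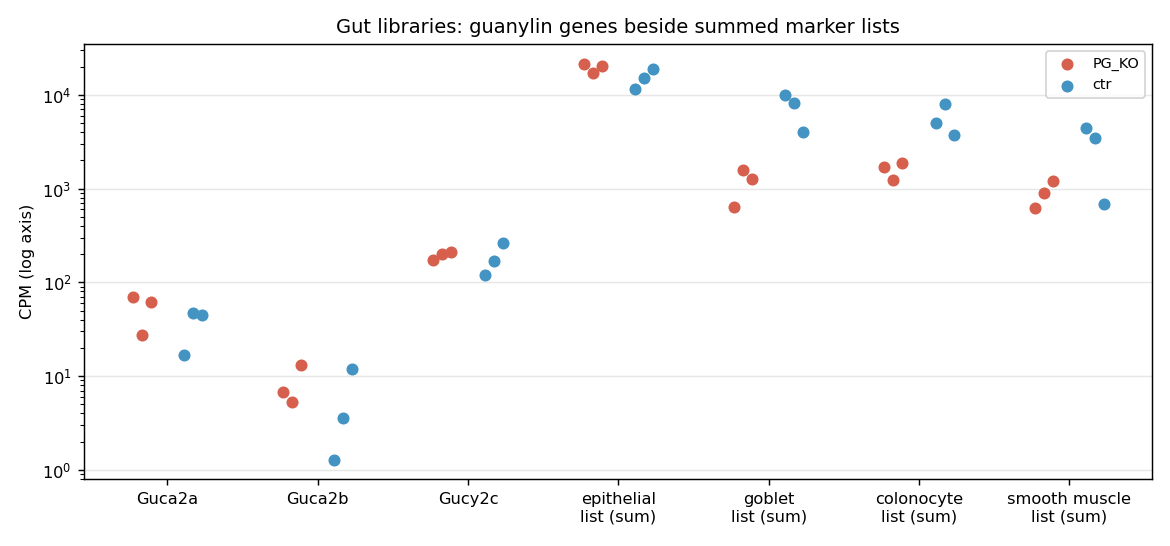
CPM on a log axis of Guca2a, Guca2b and Gucy2c and of 4 summed marker lists in the 3 PG_KO and 3 ctr gut libraries; each point is a library. The guanylin genes and the epithelial list overlap between groups, while goblet sums lie at 636 to 1582 CPM in PG_KO and 4038 to 10042 CPM in ctr.

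Set against epithelial RNA, the 3 genes again did not separate the gut groups. The log2 CPM of Guca2a minus the mean log2 CPM of the 12 epithelial markers was -4.58 ± 0.55 in PG_KO and -4.86 ± 0.61 in ctr (SD, n = 3 each), a difference of 0.28 with an exact two-sided permutation p of 0.5. For Guca2b the values were -7.21 ± 0.61 in PG_KO and -7.95 ± 1.27 in ctr, a difference of 0.73 with an exact p of 0.4. For Gucy2c they were -2.60 ± 0.27 in PG_KO and -2.46 ± 0.28 in ctr, a difference of -0.14 with an exact p of 0.5. With 3 against 3 libraries the smallest exact p is 0.1, so this test could not reach 0.05.

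The difference between the organoid and gut comparisons was tested as an interaction, PG_KO over ctr minus Tamoxifen over DMSO. It was -15.37 for Guca2a (SE 1.18, adjusted p = 1.94e-05 by edgeR), -11.44 for Guca2b (SE 1.31, adjusted p = 7.79e-05 by edgeR) and -11.82 for Gucy2c (SE 0.49, adjusted p = 6.36e-08 by edgeR). Of all 19141 genes in that fit, 36.4% were called. Jup was lower in PG_KO than in ctr and in Tamoxifen than in DMSO organoids, but tissue, treatment, Cre and code changed with the comparison and cannot be told apart.

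Levels between the 3 genes were compared as TPM, which divides reads by the exon length given in the tables (560 bases for Guca2a, 602 for Guca2b and 3936 for Gucy2c). In Tamoxifen organoids guanylin RNA was the highest at 1022 ± 27.9 TPM, uroguanylin RNA followed at 423 ± 0.429 TPM and receptor RNA at 133 ± 2.26 TPM, and these levels did not overlap. By mean TPM the 3 genes took ranks 153, 378 and 1352 among all genes there. In PG_KO gut the order was Guca2a at 203 ± 84.5 TPM, Gucy2c at 107 ± 9.20 TPM and Guca2b at 30.2 ± 14.3 TPM. In ctr gut it was Guca2a at 144 ± 68.0 TPM, Gucy2c at 104 ± 44.6 TPM and Guca2b at 20.8 ± 21.3 TPM. In both gut groups the ranges of Guca2a and Gucy2c overlapped, while Guca2b lay below both. The tables of organoids and gut were deposited separately, so a level set across them is a description.

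Across groups, Guca2a and Guca2b were highest in Tamoxifen organoids, then in gut, with PG_KO and ctr overlapping, and lowest in nativ and DMSO organoids. Gucy2c differed less between Tamoxifen organoids and gut: its TPM was 131 to 135 in Tamoxifen organoids, 96.0 to 113 in PG_KO gut and 66.5 to 153 in ctr gut, so the ctr range spans that of the Tamoxifen organoids. Uroguanylin made up 29.1%, 29.9% and 28.8% of the hormone TPM (Guca2a plus Guca2b) in Tamoxifen organoids. The share was 8.34%, 15.2% and 16.8% in PG_KO gut and 6.65%, 6.54% and 19.7% in ctr gut. All gut values lay below all Tamoxifen organoid values, and the gut groups overlapped. Hormone TPM per receptor TPM was 10.9 ± 0.261 in Tamoxifen organoids, 2.23 ± 0.984 in PG_KO gut and 1.55 ± 0.531 in ctr gut (SD, n = 3 each).

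**Figure D4:**
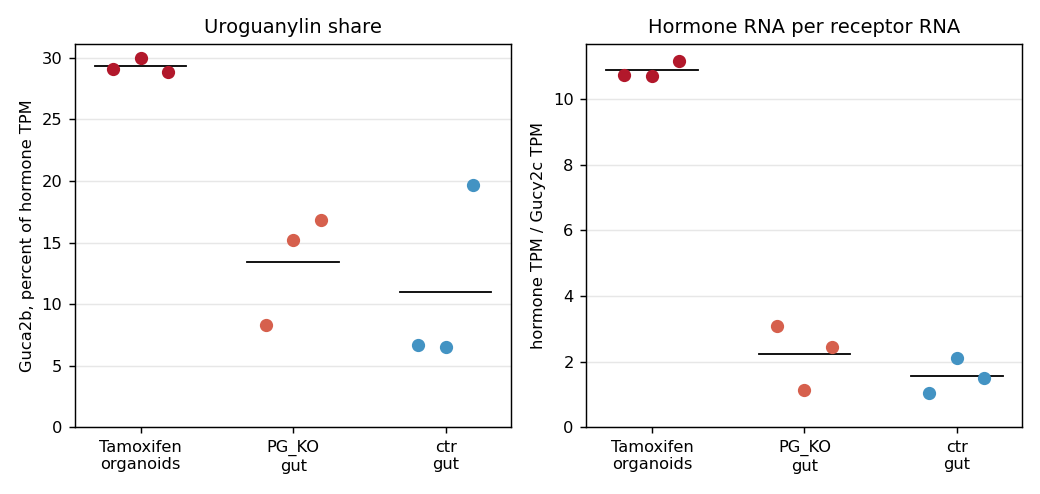
Guca2b as a percent of hormone TPM (left) and hormone TPM divided by Gucy2c TPM (right) in Tamoxifen organoids, PG_KO gut and ctr gut; points are libraries and bars are means. DMSO and nativ organoids are left out because they hold at most 21 hormone reads a library; Tamoxifen organoids lie at 28.8% to 29.9% and above 10 hormone TPM per receptor TPM.

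Within gut, the log2 ratio of Guca2b to Guca2a CPM was -2.63 ± 0.62 in PG_KO and -3.08 ± 1.01 in ctr, a difference of 0.45 with an exact permutation p of 0.6. The log2 ratio of Gucy2c to Guca2a CPM was 1.98 ± 0.78 in PG_KO and 2.40 ± 0.51 in ctr, a difference of -0.42 with an exact permutation p of 0.5. Markers of gut position also differed between the organoid and gut libraries. Hoxb13, a gene of the distal hindgut, averaged 242 ± 81.9 CPM in PG_KO and 223 ± 73.9 CPM in ctr gut, and 0.0437 ± 0.0496 CPM in Tamoxifen organoids. Fabp6, the ileal bile acid carrier, averaged 108 ± 8.30 CPM in Tamoxifen organoids, 2.65 ± 2.12 CPM in PG_KO and 1.54 ± 0.982 CPM in ctr gut. The 5 ileum markers, Fabp6 included, summed to 354 to 375 CPM in Tamoxifen organoids, 88.7 to 152 CPM in PG_KO and 84.7 to 174 CPM in ctr gut, a smaller difference than that of Fabp6 alone. The 5 colon position markers in the tables summed to 13.9 to 16.3 CPM in Tamoxifen organoids, 316 to 635 CPM in PG_KO and 323 to 546 CPM in ctr gut. The 6 markers of proximal small intestine summed to 739 to 765 CPM in Tamoxifen organoids. In gut they summed to 127 to 144 CPM in PG_KO and 118 to 190 CPM in ctr, so the contrast was not one of ileum markers alone. How far position accounts for the hormone shares was not tested.

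Of 30 listed genes of cyclic GMP signalling and its intestinal effectors, 19 passed the filter on low counts in organoids. In Tamoxifen over DMSO organoids 15 of these rose and 4 fell, with a median log2 change of 3.28. Over all genes tested the median was 0.02, and 33.9% rose and 32.4% fell. Genes near 0 in DMSO and nativ organoids, such as Slc9a3 and Pde3a, passed the filter only through the Tamoxifen libraries. They could then only rise, so the counts and medians are partly set by the filter, which applied to all genes. Genes that act after the receptor were among those that rose. Prkg2, the kinase that cyclic GMP activates in enterocytes, had 76.5, 81.2 and 73.1 CPM in Tamoxifen organoids and 1.22, 1.47 and 1.51 CPM in DMSO organoids, a log2 change of 5.71 (SE 0.14, adjusted p = 2.36e-10 by edgeR). The chloride channel gene Cftr had 164, 164 and 152 CPM in Tamoxifen organoids and 0.372, 0.199 and 0.459 CPM in DMSO organoids, a log2 change of 8.75 (SE 0.22, adjusted p = 2.87e-10 by edgeR). The sodium/hydrogen exchanger gene Slc9a3 had 69.0, 83.7 and 75.2 CPM in Tamoxifen organoids and 0.101, 0 and 0.164 CPM in DMSO organoids, a log2 change of 9.54 (SE 0.29, adjusted p = 8.54e-10 by edgeR).

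Other transporters and scaffolds rose with them. The exchanger gene Slc9a2 rose by 6.85 (SE 0.18), the anion exchanger gene Slc26a6 by 7.85 (SE 0.24) and the scaffold gene Slc9a3r1 by 1.30 (SE 0.12) on the log2 scale. Slc26a3, a chloride/bicarbonate exchanger, averaged 37.1 CPM in Tamoxifen organoids and 0.0109 CPM in DMSO organoids. The listed enzymes that break down cyclic nucleotides went in both directions. Pde5a rose by 3.28 (SE 0.12), Pde9a by 2.08 (SE 0.09) and Pde2a by 1.27 (SE 0.24), while Pde3b fell by 2.39 (SE 0.20). Its relative Pde3a rose, averaging 47.0 CPM in Tamoxifen organoids and 0.0242 CPM, or 2 reads in all, in DMSO organoids. Abcc4, a pump that exports cyclic nucleotides, fell by 3.22 (SE 0.28), with 40.7, 43.3 and 42.1 CPM in Tamoxifen organoids and 518, 269 and 343 CPM in DMSO organoids. The scaffold gene Slc9a3r2 fell by 3.34 (SE 0.14) and Gucy1a2, a subunit of the soluble nitric oxide-activated cyclase, by 5.63 (SE 0.49).

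The other sources of cyclic GMP were scarce in organoids. Gucy1a1, the main alpha subunit of the soluble cyclase, had 0 reads in Tamoxifen and in DMSO organoids and 2 reads over nativ organoids, and Prkg1, the kinase of smooth muscle, 0 reads in Tamoxifen organoids. Npr1, the receptor cyclase for atrial natriuretic peptide, had 1.04 to 1.44 CPM in Tamoxifen organoids and 0.135 to 0.238 CPM in DMSO organoids. Tamoxifen over nativ organoids again gave 15 genes that rose and 4 that fell of 19, with a median of 2.98 against 0.01 over all genes. Between DMSO and nativ organoids edgeR called 0 of 19, and DESeq2 called Abcc4 as higher in DMSO organoids (log2 change 0.95, DESeq2 adjusted p = 0.0407). Over all genes DESeq2 called 0.919% there.

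**Figure D5:**
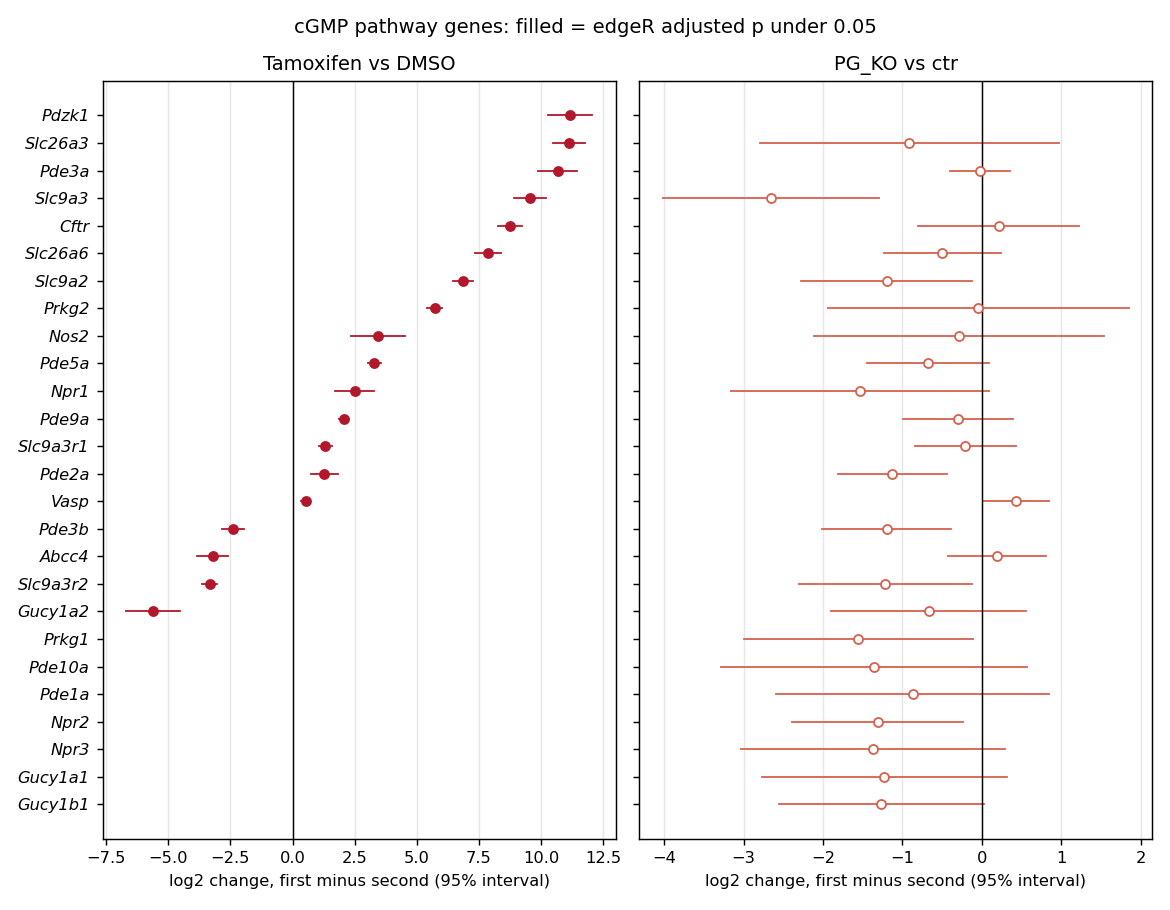
Log2 changes of the listed cyclic GMP pathway genes with 95% intervals in Tamoxifen over DMSO organoids (left) and PG_KO over ctr gut (right); filled points passed the edgeR adjusted p threshold of 0.05, and genes with no point did not pass the low-count filter there. All 19 points at left are filled, 15 above 0 and 4 below, and all 25 at right are open.

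In gut, 25 of the 30 genes were tested and edgeR called 0 of 25 between PG_KO and ctr. Their median log2 change was -0.91 against -0.03 over all genes, and 5 of the 25 did not overlap between groups (Slc9a3, Slc9a2, Vasp, Pde2a and Pde3b), a share near the 18.6% of all genes. Slc9a3 had 18.4, 3.96 and 9.43 CPM in PG_KO and 52.7, 91.1 and 61.9 CPM in ctr, and each PG_KO library lay below each ctr library. Its log2 change was -2.65 (SE 0.57, adjusted p = 0.330 by edgeR), while DESeq2 gave an adjusted p of 7.33e-04. DESeq2 also called Pde2a, a cyclic nucleotide phosphodiesterase (log2 change -1.09, DESeq2 adjusted p = 0.0437). Over all genes DESeq2 called 2.33% in this comparison. Cftr had 12.3, 20.8 and 37.2 CPM in PG_KO and 13.8, 20.5 and 26.0 CPM in ctr, a log2 change of 0.21 (SE 0.43, adjusted p = 0.802 by edgeR). Prkg2 averaged 1.96 CPM in PG_KO and 2.11 CPM in ctr, far below its level in Tamoxifen organoids. Slc26a3 had 160, 65.3 and 162 CPM in PG_KO and 38.6, 390 and 304 CPM in ctr. Without ctr replicate 3 edgeR called 7 of 26 pathway genes tested, Gucy1a1, Gucy1b1, Npr1, Npr2, Pde3b, Pde5a and Prkg1, all lower in PG_KO. In that fit 7.91% of 18679 genes were called, 5.91% as lower in PG_KO. Smooth muscle markers were lowest of the ctr group in the library left out, and their part in these calls was not tested.

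Of 15 listed genes of intestinal transcription factors, 10 rose and 4 fell in Tamoxifen over DMSO organoids, where 33.9% of all genes tested rose and 32.4% fell. Their median log2 change was 3.74 against 0.02 over all genes. Factors near 0 in DMSO and nativ organoids, such as Cdx1 and Gata4, likewise passed the low-count filter only through the Tamoxifen libraries and could only rise. Cdx2, a homeobox factor that sets intestinal identity, had 326, 326 and 335 CPM in Tamoxifen organoids and 15.6, 15.5 and 17.8 CPM in DMSO organoids, a log2 change of 4.27 (SE 0.12, adjusted p = 6.07e-10 by edgeR). Cdx1, its close relative, averaged 103 CPM in Tamoxifen organoids and had 1 read over the DMSO organoids. Hnf4g, a nuclear receptor of enterocytes, averaged 173 CPM in Tamoxifen and 0.240 CPM in DMSO organoids, a log2 change of 9.37 (SE 0.24, adjusted p = 3.23e-10 by edgeR). Gata4, a factor of the small intestine, averaged 121 CPM in Tamoxifen and 0.0594 CPM in DMSO organoids.

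Hnf4a, another nuclear receptor of the gut epithelium, had 1051 to 1058 CPM in Tamoxifen organoids and 161 to 225 CPM in DMSO organoids, a log2 change of 2.41 (SE 0.16, adjusted p = 3.37e-07 by edgeR). Gata6 was not called, with a log2 change of 0.07 (SE 0.11, adjusted p = 0.561 by edgeR). Against nativ organoids 10 factors rose and 3 fell, where 33.5% of all genes rose and 33.5% fell. In gut, edgeR called 0 of 15 factors between PG_KO and ctr, with a median log2 change of 0.19. DESeq2 called Gata4, at 0.0684 to 0.198 CPM in PG_KO and 0.776 to 1.43 CPM in ctr, and Spdef, a goblet cell factor, both lower in PG_KO. Gata4 had only 5, 5 and 2 reads in the PG_KO libraries, and over all genes DESeq2 called 2.33%. Hnf4a averaged 554 CPM in PG_KO and 450.0 CPM in ctr gut, and Cdx1 295 CPM in PG_KO and 256 CPM in ctr gut. Cdx2 had 112, 80.4 and 93.7 CPM in PG_KO and 40.4, 45.7 and 92.7 CPM in ctr. Without ctr replicate 3 edgeR called Cdx2 (log2 change 1.22) and Klf5 (1.00) as higher and Gata4 (-2.81) as lower in PG_KO. In that fit 7.91% of all genes tested were called.

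Genes whose log2 CPM ran most like each member across the 15 libraries were found by Pearson's r among 12685 genes, as a description, since the libraries fall into groups that differ in 66.3% of genes tested (Tamoxifen against DMSO organoids). For Guca2a the closest were Mgam, a brush border maltase (r = 0.996), Glod5 (0.995), the brush border proteases Mep1b (0.991) and Mep1a (0.990), Cmas (0.990) and Tmem236 (0.989). Mgam averaged 2046 CPM in Tamoxifen organoids, 0.359 CPM in DMSO organoids, 1.20 CPM in nativ organoids, 251 CPM in PG_KO gut and 249.9 CPM in ctr gut. For Guca2b they were Hnf4g (0.992), Akr1c12 (0.990), Me2 (0.984), Clec2e (0.983), Cldn15, a claudin of the small intestine (0.982), and Dqx1 (0.981). For Gucy2c they were Btnl4 (0.995), Clrn3 (0.994), Agr2, a goblet cell disulfide isomerase (0.994), Vipr1, the receptor for vasoactive intestinal peptide (0.993), L1cam (0.993) and Nr1i2 (0.993). The 3 lists share no gene. Among the members r was 0.978 for Guca2a with Gucy2c, 0.946 for Guca2a with Guca2b and 0.872 for Guca2b with Gucy2c.

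Over the 6 gut libraries alone, where the large organoid contrast is absent, the closest genes were others. They were led by Taldo1 for Guca2a (r = 0.995), Gal3st1 for Guca2b (0.994) and Cyb561 for Gucy2c (0.999), of 11990 genes ranked over 6 libraries. Among the members, r over the gut libraries was 0.792 for Guca2a with Guca2b, 0.652 for Guca2a with Gucy2c and 0.922 for Guca2b with Gucy2c. Guca2b and Gucy2c were both highest in replicate 3 of each gut group, at 13.3 and 211 CPM in PG_KO and 11.9 and 265 CPM in ctr.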

How the data were processed

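The authors deposited expected counts for each gene, in 1 table of 9 organoid libraries and 1 of 6 gut libraries, with no scaling between libraries as far as the values show. Between 10.4% and 13.7% of a library's values were not whole, and the values of the 3 guanylin genes were all whole. Per the submitters' processing notes, the tools were STAR 2.7.2b, featureCounts 1.6.4 (Subread), cutadapt 2.5, bcl2fastq 2.20.0.422 and DESeq2, with the build GRCm38.p6. Strand setting and read filters are not given in the sources used here. RNA was isolated with TRIZOL and had integrity numbers of at least 7.7, per the labels' protocols.

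Values were rounded and fitted over all genes in edgeR 4.0.16 under R 4.3.3, with its quasi-likelihood F test (TMM, filterByExpr by group, robust, Benjamini-Hochberg over all tested genes, threshold 0.05). Organoid comparisons used all 9 organoid libraries, gut comparisons the 6 gut libraries, and the interaction the 12 libraries without nativ. Standard errors are the absolute log2 change over the square root of F. CPM and TPM were computed from the deposited counts and exon lengths, and log2 CPM used a prior count of 2. Ratios against few reads carry 95% intervals of counting error. Single values were tested by exact permutation in scipy 1.17.1, and figures drawn with matplotlib 3.10.9. The fits were tested on simulated data. Alternatives were DESeq2 1.42.0, limma-voom (limma 3.58.1), other filters, scalings and sample sets, and leaving out each replicate.

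The genes and lists were chosen with earlier results of these data known. Genes could be named if they were members, Jup, pathway or factor genes, or among the 6 with the highest r to a member. For the last, a gene needed a group mean of 5 CPM or more, and predicted genes were left out. Gm35761, Hoxb13 and Fabp6 were named after their values were seen. Replicate numbers were not treated as pairs. Some items of the lists are not reported here.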

Additional observations from a re-analysis of the deposited data

Results flagged for a closer look

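The change between PG_KO and ctr gut differed from that between Tamoxifen and DMSO organoids for each guanylin gene by the interaction test of edgeR. The difference of log2 changes was -15.37 for Guca2a, -11.44 for Guca2b and -11.82 for Gucy2c. Each of the 3 was higher in 3 of 3 Tamoxifen libraries than in every DMSO library and overlapped between the gut groups. The value for Guca2a has DMSO organoids at 0 reads and depends on the fit. Without DMSO replicate 3, which leaves DMSO organoids at 0 reads of Guca2b, its value was -14.15 and likewise depends on the fit, and without ctr replicate 3 it was -10.08, and without DMSO replicate 1 the value for Gucy2c was -12.44. The test for a single outlying sample needs at least 4 libraries a group and was not run.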

How the results depend on the processing

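Of 418 alternative values, 399 kept direction and side of the threshold, 11 moved and 8 changed sign. The guanylin genes passed an adjusted p of 0.05 in 84 of 84 alternatives of the Tamoxifen comparisons and in 0 of 42 of PG_KO against ctr. The 84 reuse the same DMSO and nativ counts at or near 0, so they are not separate evidence. In the main fits 66.3% of all genes tested passed against DMSO organoids and 66.9% against nativ organoids. Between DMSO and nativ organoids the number of genes called was 138 with DESeq2, 2 without the low-count filter and 0 to 1 with a replicate left out, and DESeq2 called 1 pathway gene. Between PG_KO and ctr it was 431 with DESeq2, 5 without the filter and 0 to 1478 with a replicate left out, the highest without ctr replicate 3. DESeq2 called 2 pathway genes and 2 transcription factors there, and leaving out a replicate gave 0 to 7 and 0 to 3. The DMSO against nativ change of Gucy2c was 0.51 with limma-voom and ran from -1.73 to 3.91 with a replicate left out. The PG_KO against ctr change of Gucy2c ran from -0.18 to 0.48, of Guca2a from 0.19 to 0.88 and of Guca2b from 0.11 to 1.85. Relative to epithelial genes, Guca2a ran from -0.054 to 0.60 and Gucy2c from -0.26 to 0.0097. Without ctr replicate 1 and PG_KO replicate 3, chosen after seeing the data, Guca2b was -0.35 and Gucy2c -0.23. The causes were not tested. A fit of the 6 DMSO and nativ libraries alone gave no value, as the filter removed all 3 genes.

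Replicate numbers are shared between groups. The same-numbered libraries of PG_KO and ctr deviated from their group means with correlations of 0.289, -0.183 and 0.155, so the numbers were not taken as pairs. With a replicate block the PG_KO against ctr changes were 0.56 for Guca2a, 1.00 for Guca2b and 0.16 for Gucy2c, with no call. Depth limits the DMSO and nativ values, which rest on at most 13 reads a library.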
